A study of Mus musculus with 4 samples.

Results

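Cytoplasmic ribosomal protein genes were taken as the protein-coding mouse genes on autosomes whose symbols follow the naming of the large subunit (Rpl and Rplp), the small subunit (Rps) and Rpsa, with the Rps6k kinases left out. The pattern found 79 genes, 48 of the large and 31 of the small subunit, among the 54146 mouse genes of the authors' table. The rule uses only names, biotypes and chromosomes and no measured value, although earlier results of these data were known when it was chosen. The 4 X-linked genes of the same pattern, Rpl10, Rps4x, Rpl36a and Rpl39, were left out by that rule, and Fau, Rpl36al and Rack1 carry ribosomal proteins under other names and are described apart.

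The libraries came from mouse embryonic stem (ES) cells in LIF, the cytokine that keeps them in self-renewal, and serum. TT-seq gives cells a pulse of 4-thiouridine (4sU) and sequences the RNA that took it up, so a gene's count follows its recent transcription more than its stored mRNA. There were 2 libraries labelled Supt3 WT and 2 labelled Supt3 KO. Supt3 codes for a protein of the coactivator SAGA. All 4 libraries carried 4sU-labelled RNA of the yeast S. pombe as a spike-in and were made with a stranded kit without ribodepletion, although the labels give polyA RNA as the molecule. The parental line, the number of clones and the mutant allele are not described in the labels. Nor do the labels say whether the libraries of a genotype were separate cultures, and the p-values therefore cover only how far these libraries lie apart, which may be technical.

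Each ribosome is built from a large and a small subunit, and nearly every ribosomal protein enters it as a single copy, so cells make these proteins in close balance. Their genes are short, are transcribed heavily in dividing cells and often carry snoRNA genes in their introns. Their mRNAs begin with a run of pyrimidines, the TOP motif, through which mTOR signalling sets translation, and their promoters are often bound by ETS-family factors such as GABP. Several members have paralogs that are best known from particular tissues, such as Rpl39l and Rpl10l in male germ cells and Rpl3l in striated muscle.

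Mouse genes held between 13.1 M counts (KO replicate 1) and 19.4 M counts (WT replicate 2) per library, where M stands for 1000000, and S. pombe genes between 3.46 M and 4.84 M. Replicates were numbered in accession order. Replicate 1 of both genotypes had fewer mouse counts than replicate 2. Among ES cell markers, Pou5f1, Nanog, Sall4 and Zfp42 were counted and Sox2 was at 0 in every library. Sox2 lies inside Sox2ot on the same strand, and every protein-coding gene so placed was at 0 in these counts, so its zero is no measure of its transcription. The 5 markers summed in WT to 1189 and 1181 CPM (counts per 1000000 counts of mouse genes, after TMM scaling, which sets most genes level between libraries) and in KO to 850 and 986 CPM. Of the 4 tested, 3 were lower in KO and 1, Nanog, passed the test (log2 fold change -0.53, edgeR adjusted p = 0.0362). Of all tested genes 4.02% were called lower. With a term for library pairs by depth 3 markers were called lower, against 12.5% of all tested genes. That fit left 1 residual degree of freedom. The 7 fibroblast markers, for feeder cells, summed to between 3.41 and 4.76 CPM, and Postn and Lum were at or near 0. The part of these marker levels in the results below was not tested. Supt3 itself was at 148 and 159 CPM in WT against 123 and 140 CPM in KO, and since the altered part of the gene is not described, this level does not check the genotype.

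The promoters of 4 genes named in the results are printed, and no test used them. Rpl39l was the member called by the test, Rpl39 is the X-linked gene it is a paralog of, Rps27l is another paralog, and Rpl12 had the lowest adjusted p among members below WT. Each sequence runs from 250 bases before the annotated start through the first 30 transcribed bases and was taken from RefSeq, build GRCm38.p6. The windows are Rpl39l at chr16:10169978-10170257, plus strand, Rpl39 at chrX:37085193-37085472, minus strand, Rps27l at chr9:66945836-66946115, plus strand, and Rpl12 at chr2:32961462-32961741, plus strand. Capitals mark the ETS-type motif CCGGAAG on either strand, which reads CTTCCGG where it lies on the other strand.
Rpl39l: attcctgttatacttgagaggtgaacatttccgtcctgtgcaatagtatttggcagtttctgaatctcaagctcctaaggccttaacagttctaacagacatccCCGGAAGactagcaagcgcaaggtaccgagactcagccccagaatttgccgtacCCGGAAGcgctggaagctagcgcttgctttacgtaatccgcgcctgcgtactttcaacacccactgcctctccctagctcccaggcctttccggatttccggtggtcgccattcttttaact
Rpl39: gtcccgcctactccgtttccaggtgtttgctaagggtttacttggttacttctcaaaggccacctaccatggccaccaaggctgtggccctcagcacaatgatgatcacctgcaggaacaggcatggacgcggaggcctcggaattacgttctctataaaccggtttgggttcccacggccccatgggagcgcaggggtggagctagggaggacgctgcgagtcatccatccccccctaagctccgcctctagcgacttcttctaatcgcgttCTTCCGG
Rps27l: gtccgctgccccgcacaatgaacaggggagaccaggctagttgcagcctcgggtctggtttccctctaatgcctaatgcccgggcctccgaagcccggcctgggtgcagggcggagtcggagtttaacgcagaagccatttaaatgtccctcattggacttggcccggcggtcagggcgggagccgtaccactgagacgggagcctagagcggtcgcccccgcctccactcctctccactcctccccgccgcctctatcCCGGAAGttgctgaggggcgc
Rpl12: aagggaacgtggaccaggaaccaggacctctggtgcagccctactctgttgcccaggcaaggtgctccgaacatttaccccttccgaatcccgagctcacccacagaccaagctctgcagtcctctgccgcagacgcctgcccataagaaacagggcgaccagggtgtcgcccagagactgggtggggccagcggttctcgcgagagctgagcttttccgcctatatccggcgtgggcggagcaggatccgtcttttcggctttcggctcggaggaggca
The Rpl39l window held 2 matches upstream of its start. The printed Rps27l window and the Rpl39 window each held 1 within their first 30 transcribed bases. The printed Rpl12 stretch held none, as did a further Rps27l window, chr9:66946163-66946442, that is not printed.

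RefSeq promoter windows of 300 bases (250 before and 50 after the start) were found for 59 members by symbol and not for the other 20, and some members had several starts. CCGGAAG, searched on both strands, was present in 26 of 71 member windows (36.6%) and in 2910 of 32851 windows of all genes (8.86%). A run of at least 6 pyrimidines that begins with C, searched on the sense strand and beginning within 5 bases of the start, was present in 27 of 71 member windows (38.0%) and in 10.2% of all windows. Both searches cover the same windows and their matches may overlap. The median log2 fold change, KO over WT, was -0.08 for the 25 tested members with CCGGAAG and -0.03 for the 31 without it. It was -0.11 for the 26 with the pyrimidine run and -0.02 for the 30 without it. A match describes the letters of a window and not a bound site, and these medians were not compared by a test.

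Not every member could be measured. Rpl13 and Rpl24, proteins of the large subunit, had 0 counts in all 4 libraries, and the muscle paralog Rpl3l had 3 and 4 counts in WT and 7 and 1 in KO. The other 76 passed the filter on low counts. Rpl13 (chromosome 8, 123102350 to 123105244) lies wholly inside Gm20388, a gene model on the same strand that spans 119910841 to 124345722, and Gm20388 itself held between 2029 and 3217 counts. Rpl24 (chromosome 16, 55966275 to 55971435) has 5093 of its 5161 bases under Gm28037, also on its strand. All 457 protein-coding genes wholly inside another gene on the same strand were at 0, also the 259 that share no exon with it, against 26.7% of 814 genes inside a gene of the opposite strand and 21.2% of 11983 genes free of overlap. These zeros are therefore no measure of Rpl13 or Rpl24 transcription. Rpl13a had 2840 of its 3204 bases under Gm45713, and its level rests on the remaining 364 bases. The 56 snoRNA genes inside 28 members held 0 counts, which leaves the host gene's own counts short of that stretch. Rpl7l1, wholly under Gm26904 on the opposite strand, kept its counts.

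By counts per kb of gene span, introns included, the measured members were among the highest of the tested genes. Members were not ranked against all genes by exon length. Their median level was 34.5 CPM per kb of gene, against 0.766 over all 16789 tested genes. By level per kb 75 of the 76 lay in the top 10% of tested genes and 32 in the top 1%, and Rpl11, a partner of Rpl5 in binding the p53 regulator Mdm2, was the member outside the top 10%. The median over members was 34.8 and 36.2 CPM per kb in WT and 33.4 and 34.1 in KO. Large subunit members had a median of 32.0 and small subunit members one of 39.3 CPM per kb.

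Rpl8, a large subunit protein near the catalytic centre, had the highest level per kb of gene, 165 CPM per kb over the 4 libraries. Rplp1 of the stalk followed with 113, Rps12 of the small subunit with 104, Rpl4, which lines the exit tunnel, with 101, Rps26, at the mRNA exit site, with 89.7, and Rps9 with 82.0 CPM per kb. At the low end stood Rpl11 with 4.48, Rpl13a with 6.21 and Rps2 with 8.29 CPM per kb. Over the 364 bases of Rpl13a that no other gene on its strand covers, its level was 54.7 CPM per kb, above the member median. On that scale Rps12, which holds 3 snoRNA genes, had 120 CPM per kb and stood above Rplp1 with 113 and Rpl4 with 109. The order depends on the length used. Per kb of exon, known for 71 tested members, Rplp1 took place 1, Rpl8 place 2 and Rpl4 place 3. Rps26 took place 10, Rps12 place 16 and Rps9 place 22. Exon length joined the exons of all annotated transcripts of a gene, so it is not mRNA length. It was 2027 of 2093 bases in Rps12 and 2522 of 2905 in Rps9, against 499 of 1259 in Rplp1. Rpl11, which spans 25164 bases, had 41.8 CPM per kb of exon and took place 55. Across these 71 genes Spearman's rho between both scales was 0.64, a description of genes that share libraries.

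The members with the most counts, a measure that also grows with gene length, were Rps15a, Rpl4, Rpl3, Rps3, Rpl8 and Rps24. Rps15a, a protein of the small subunit body, stood at 658 and 674 CPM in WT against 631 and 630 CPM in KO, so both KO libraries were below both WT libraries, with a log2 fold change of -0.08 ± 0.11 (SE; edgeR adjusted p = 0.727). Rpl4 was at 539 and 483 CPM in WT against 600 and 513 CPM in KO, and the groups overlapped (0.12 ± 0.12, edgeR adjusted p = 0.607). Rps3, at the mRNA entry of the small subunit, was at 444 and 366 CPM in WT against 450 and 362 CPM in KO. Its libraries split by replicate number and not by genotype, as did those of Rpl8, at 388 and 312 CPM in WT against 433 and 344 CPM in KO. In both genes replicate 1 was high and replicate 2 low in each genotype.

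**Figure D1:**
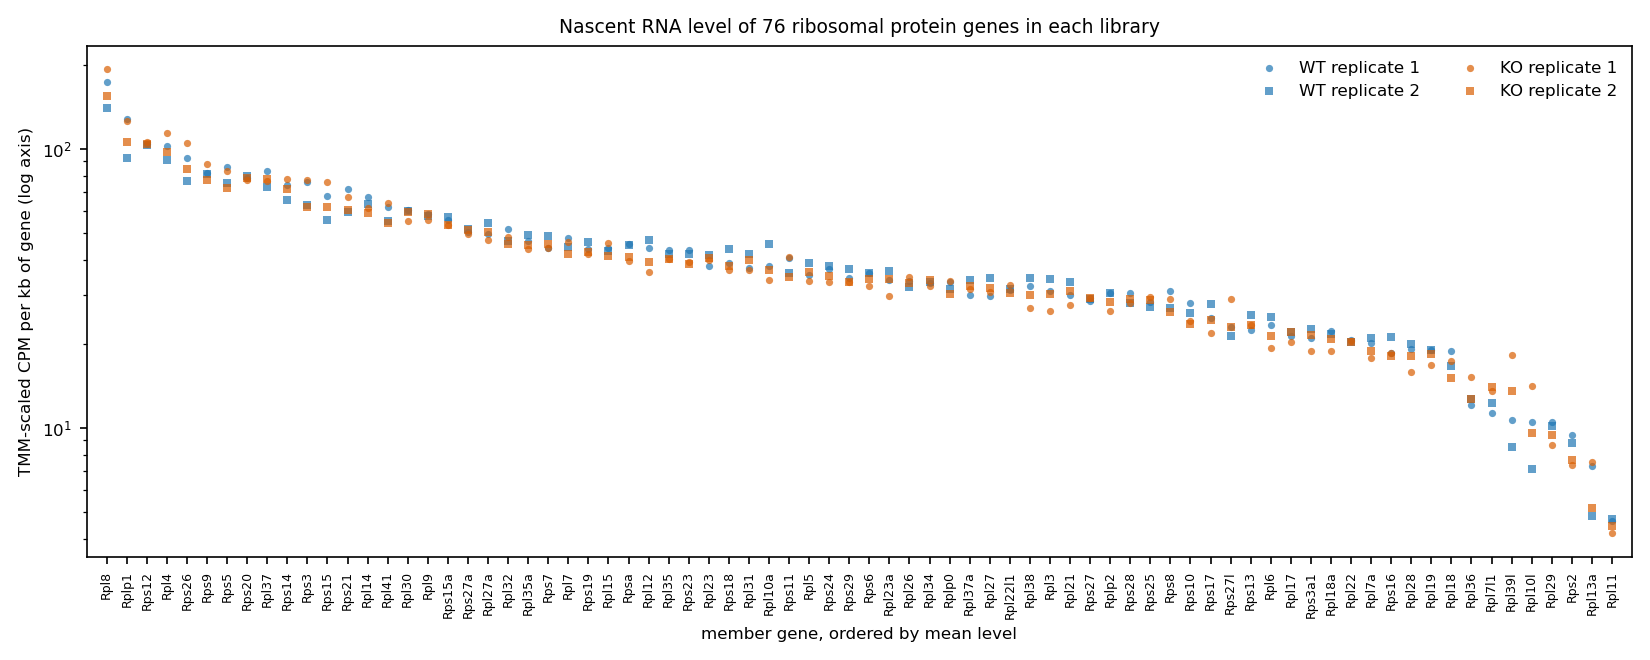
Level of each of the 76 tested members in each library, as TMM-scaled CPM per kb of gene on a log axis, ordered by the mean; circles are replicate 1, squares replicate 2, blue WT and orange KO. For most genes the 4 points lie close together over the whole range from 4.48 (Rpl11) to 165 (Rpl8).

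Summed over the 79 members, the ribosomal protein genes took a part of nascent mouse RNA that differed less between genotypes than between the libraries of a genotype. Their share of mouse counts was 1.21% and 1.15% in the WT libraries against 1.20% and 1.10% in the KO libraries. The KO values lay inside or below the WT range, and replicate 2 was the lower library in each genotype. The log2 difference of KO minus WT was -0.04, a ratio of 0.975 (exact two-sided permutation test over libraries, p = 0.667, where the smallest p possible is 0.333). Without KO replicate 2 the difference was 0.03.

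Set against the spike-in, members gave, for each S. pombe count, 0.0392 and 0.0647 counts in the WT libraries against 0.0325 and 0.0534 in the KO libraries. The 2 KO values were each below the WT value of the same number, but the ranges overlapped and the libraries of a genotype differed more than the genotypes did. The log2 difference was -0.27, a ratio of 0.828 (exact two-sided permutation test, p = 0.667, smallest possible 0.333). It turned to 0.09 without WT replicate 2 and to 0.08 without KO replicate 1. Within the libraries with fewer counts the log2 difference was -0.27, and within those with more it was -0.28. In such bulk samples fewer cells and less RNA per cell cannot be told apart.

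The balance of the subunits differed less between genotypes than between libraries. Counts of large over small subunit genes had a ratio of 1.16 and 1.19 in WT and of 1.16 and 1.19 in KO. The log2 difference was 9.7e-05 (exact two-sided permutation test, p = 1.0, smallest possible 0.333), and replicate 2 had the higher ratio in each genotype.

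**Figure D2:**
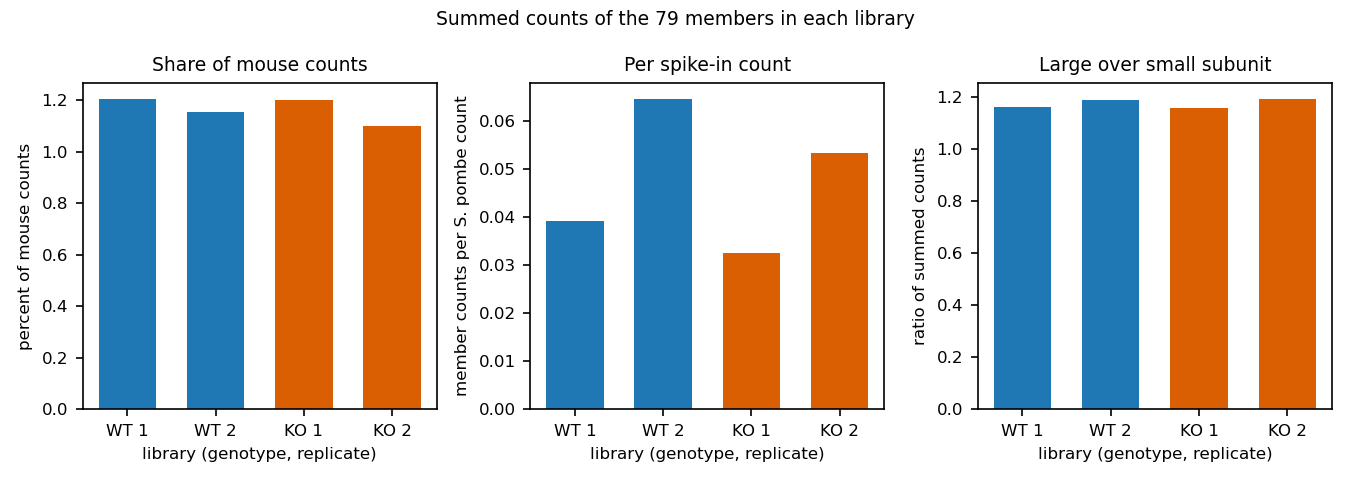
Summed counts of the 79 members in each of the 4 libraries, as a percent of mouse counts (left), per S. pombe spike-in count (middle) and as the ratio of large to small subunit genes (right); blue bars are WT, orange bars KO. The left and right panels are nearly level across libraries, from 1.10% to 1.21% and from 1.16 to 1.19, while the middle panel differs more between replicates than between genotypes.

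Gene by gene, relative to all mouse genes, a single member was called different between the genotypes: Rpl39l was called higher in KO, and 0 members were called lower. In edgeR's quasi-likelihood test with TMM scaling (Benjamini-Hochberg adjusted p under 0.05), 4.05% of the 16789 tested genes were called higher and 4.02% lower. DESeq2 and limma voom on the same genes also called 1 member higher and 0 lower. At an unadjusted p under 0.05 edgeR had 7 members, of which Rpl39l and Rpl7l1 were higher and Rps2, Rpl12, Rpl10a, Rpl6 and Rpl38 lower, while DESeq2 had 2 and limma voom 6. Over all 16789 tested genes these counts were 3842 in edgeR, 2534 in DESeq2 and 3839 in limma voom, a larger share than among members.

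The members as a whole lay slightly under the other genes and close together. Their median log2 fold change was -0.05, against 0.01 over all tested genes, and 54 of 76 were negative (71.1%, against 48.9% of all tested genes). The quartiles were -0.12 and 0.01 for members and -0.20 and 0.19 for all tested genes. Within ±0.2 lay 65 members (85.5%, against 50.3% of all tested genes). Members are counted more deeply than most genes, with a median of 120 CPM against 14.8, and the part of depth in this narrow spread was not tested.

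Both KO libraries were below both WT libraries in 27 members (35.5%, background 26.0%) and above them in 6 members (7.89%, background 26.7%). The 6 were Rpl39l, Rpl7l1, Rpl36, Rps25, Rps12 and Rps27. In Rps12, Rps27 and Rps25 the log2 fold change was small, at 0.02, 0.02 and 0.08, and in Rpl36 the lower KO library, at 10.8 CPM, was barely above the higher WT library, at 10.7 CPM. By subunit, the median was -0.06 for 45 large subunit members, of which 32 were negative, and -0.05 for 31 small subunit members, of which 22 were negative.

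**Figure D3:**
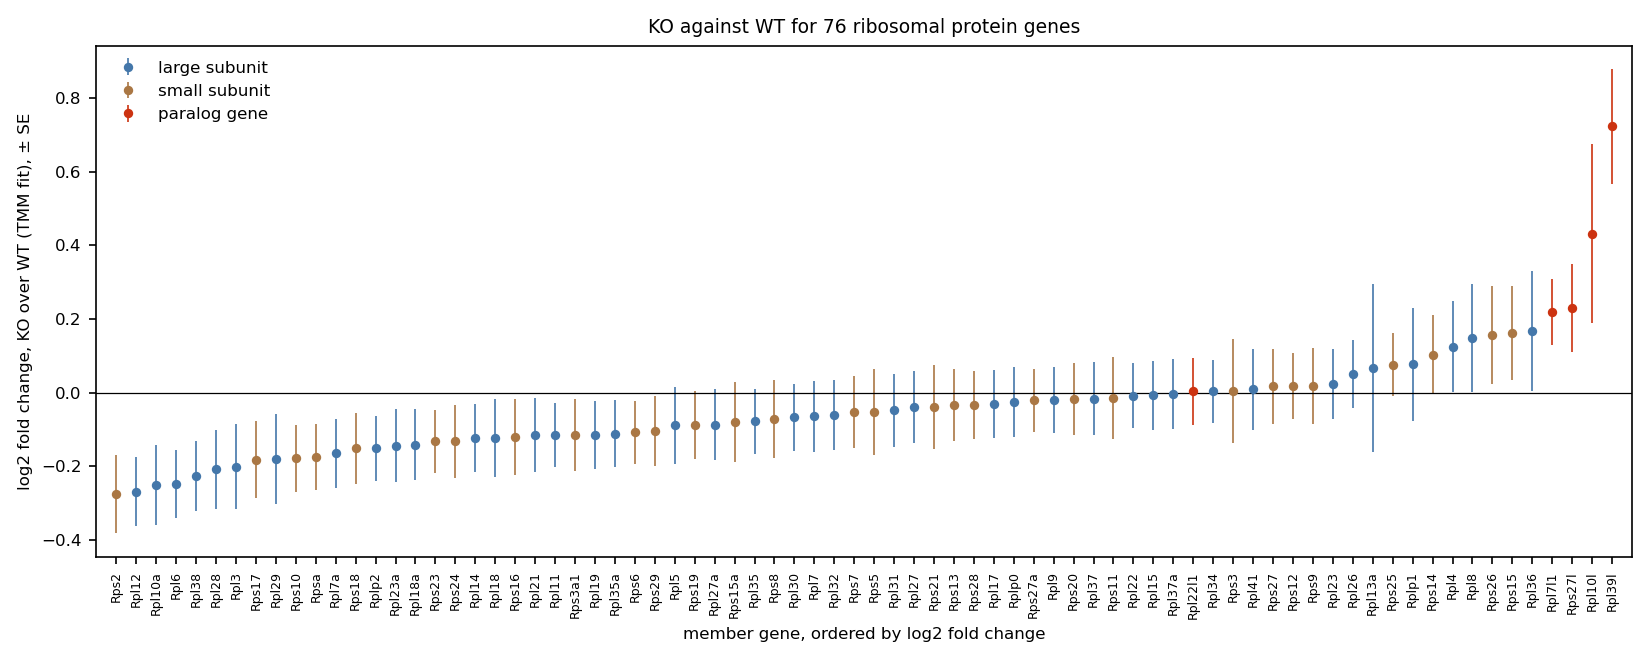
Log2 fold change of KO over WT for the 76 tested members in the TMM-scaled edgeR fit, ordered by size, with bars for the standard error; blue points are large subunit, brown small subunit and red paralog genes. Most points lie within 0.2 of zero, and Rpl39l stands at the right end at 0.72.

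Rpl39l, the autosomal paralog of the small exit-tunnel protein Rpl39, was transcribed more in both KO libraries. Its level was 50.1 and 40.1 CPM in WT (mean 45.1 ± 7.09, SD, n = 2) and 85.5 and 63.4 CPM in KO (74.4 ± 15.6, SD, n = 2). Both KO libraries were above both WT libraries, and replicate 2 was the lower library in each genotype. The log2 fold change was 0.72 ± 0.16 (SE; edgeR adjusted p = 0.0261), and with each library left out in turn it stayed called at 0.50 to 0.93. Within the libraries with fewer counts the difference was 0.77, and within those with more it was 0.66. Per spike-in count the value was 0.47 ± 0.71 and did not pass (edgeR adjusted p = 1.00), so the call is relative to the other mouse genes.

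Rpl39l (ENSMUSG00000039209) lies on the plus strand of chromosome 16, between bases 10170226 and 10174911 of mm10. The X-linked Rpl39 stood at 188 and 154 CPM in WT against 188 and 155 CPM in KO, a log2 fold change of 0.00 ± 0.13 (edgeR adjusted p = 1.00). Its libraries split by replicate number and not by genotype. Within 150 kb of Rpl39l there were 4 other tested genes. Of these Emp2, a membrane protein gene at 1.99 to 5.11 CPM, was also called higher (1.05 ± 0.26, edgeR adjusted p = 0.0426), while Atf7ip2 had a value of 0.10, AC154256.1 one of -0.24 and AC154311.1 one of 0.07, and these 3 did not pass.

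The other paralogs gave no call in this fit, although Rpl10l, Rps27l and Rpl7l1 passed as higher with a term for library pairs (edgeR adjusted p = 0.0262, 0.0188 and 0.0124), which leaves 1 residual degree of freedom. Rpl10l, an intronless copy of the X-linked Rpl10, was at 10.7 and 7.27 CPM in WT against 14.4 and 9.76 CPM in KO, and the groups overlapped (0.43 ± 0.24, edgeR adjusted p = 0.339). Rps27l, a paralog of Rps27 known as a p53 target, was at 78.8 and 72.8 CPM in WT against 99.2 and 78.7 CPM in KO. KO replicate 1 was the high library there, and KO replicate 2 lay just under WT replicate 1 (0.23 ± 0.12, edgeR adjusted p = 0.298). Rpl7l1, related to Rpl7, was at 99.2 and 107 CPM in WT against 118 and 122 CPM in KO, so its groups did not overlap (0.22 ± 0.09, edgeR adjusted p = 0.184). Rpl22l1, a paralog of Rpl22, was at 61.8 and 62.6 CPM in WT against 64.4 and 60.4 CPM in KO, a log2 fold change of 0.00. The parent genes Rpl10, Rps27, Rpl7 and Rpl22 had log2 fold changes of -0.00, 0.02, -0.06 and -0.01. Over the 5 tested paralogs the median was 0.23. How reads that match several near-identical copies were counted is not stated in the labels or files. Of the paralogs this leaves Rpl10l, whose sequence has no introns to tell it apart, the least certain. It also concerns members with pseudogene copies. The counted genes included 296 named as ribosomal protein pseudogenes, of which 175 were at 0 in all libraries. The part of such copies in the member levels was not tested.

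**Figure D4:**
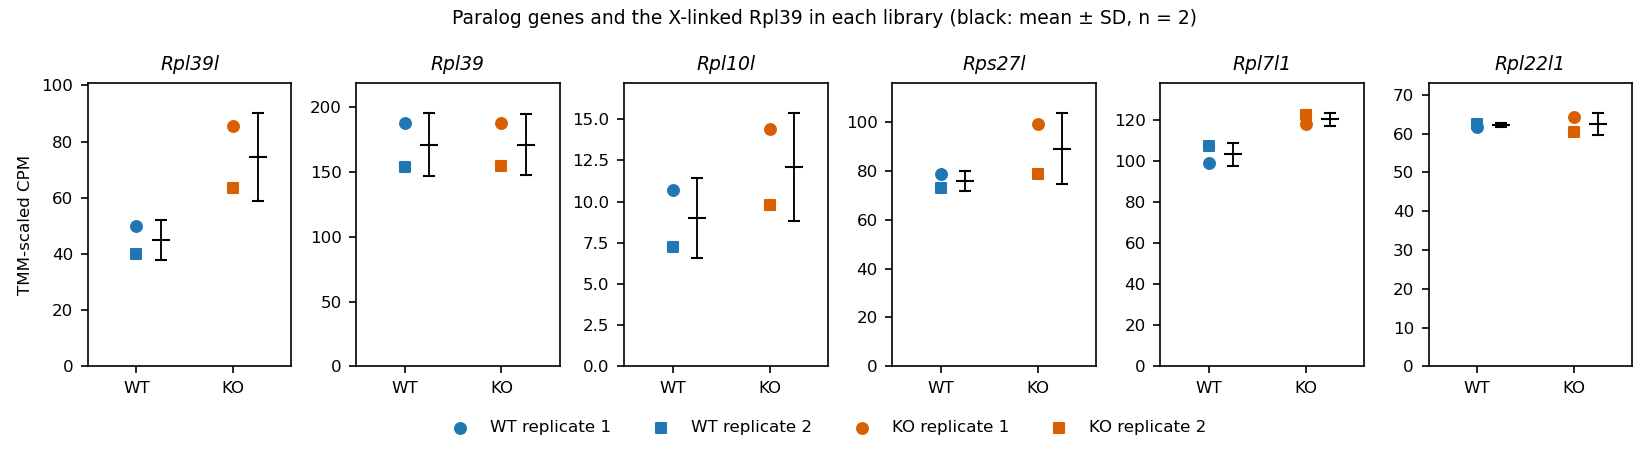
TMM-scaled CPM of 5 paralog members and the X-linked Rpl39 in each library; circles are replicate 1, squares replicate 2, blue WT and orange KO, with the mean and SD of 2 libraries in black. The KO points of Rpl39l and Rpl7l1 lie above both of their WT points, while the groups overlap in the other panels.

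At the low end of the list stood Rps2, Rpl12, Rpl10a, Rpl6 and Rpl38, and in each both KO libraries were below both WT libraries without passing the test. Rps2, at the mRNA entry of the small subunit, was at 35.8 and 33.5 CPM in WT against 28.0 and 29.2 CPM in KO (-0.28 ± 0.11, edgeR adjusted p = 0.166). Rpl12, at the base of the stalk, was at 166 and 178 CPM in WT against 137 and 148 CPM in KO (-0.27 ± 0.09, edgeR adjusted p = 0.125). Rpl10a, which forms the stalk where spent tRNA leaves, was at 97.5 and 117 CPM in WT against 86.3 and 93.8 CPM in KO (-0.25 ± 0.11, edgeR adjusted p = 0.208). In Rps2 the WT libraries differed little, while in Rpl10a WT replicate 2 was the high library. Rpl6 was at 111 and 118 CPM in WT against 91.8 and 101 CPM in KO (-0.25 ± 0.09, edgeR adjusted p = 0.149). Rpl38, whose loss in mice changes the vertebral pattern, was at 122 and 131 CPM in WT against 102 and 114 CPM in KO (-0.23 ± 0.10, edgeR adjusted p = 0.202).

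None of the stalk proteins, which recruit translation factors to the large subunit, passed the test. Rplp0, its base, was at 142 and 134 CPM in WT against 142 and 128 CPM in KO (-0.03). Rplp1 was at 161 and 116 CPM in WT against 159 and 134 CPM in KO (0.08), and its libraries split by replicate number. Rplp2 was at 128 in both WT libraries and at 111 and 119 CPM in KO (-0.15), where the groups did not overlap. Their edgeR adjusted p were 0.907, 0.818 and 0.360. Rpsa, the small subunit protein also known as the laminin receptor, was at 213 and 212 CPM in WT against 185 and 191 CPM in KO (-0.17 ± 0.09, edgeR adjusted p = 0.292).

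Members also differed between libraries of the same genotype, much alike in WT and in KO. The log2 ratio of replicate 2 over replicate 1 ran from -0.60 to 0.26 in WT and from -0.56 to 0.20 in KO. Rpl13a (-0.60 and -0.55), Rpl10l (-0.56 and -0.56) and Rplp1 (-0.47 and -0.25) were the lowest in WT. The sign was shared by 62 of 76 members, and across members Pearson's r between WT and KO was 0.82 and Spearman's rho 0.71, against r = 0.26 across all tested genes. These are descriptions across genes that share 4 libraries, with no p. In the ratios of all tested genes 0.1 CPM was added to each level, and in those of members nothing was added. Members are also counted more deeply, with a median of 120 CPM against 14.8, and the part of depth in this contrast was not tested. Rpl39l was also lower in replicate 2, by -0.32 and -0.43.

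**Figure D5:**
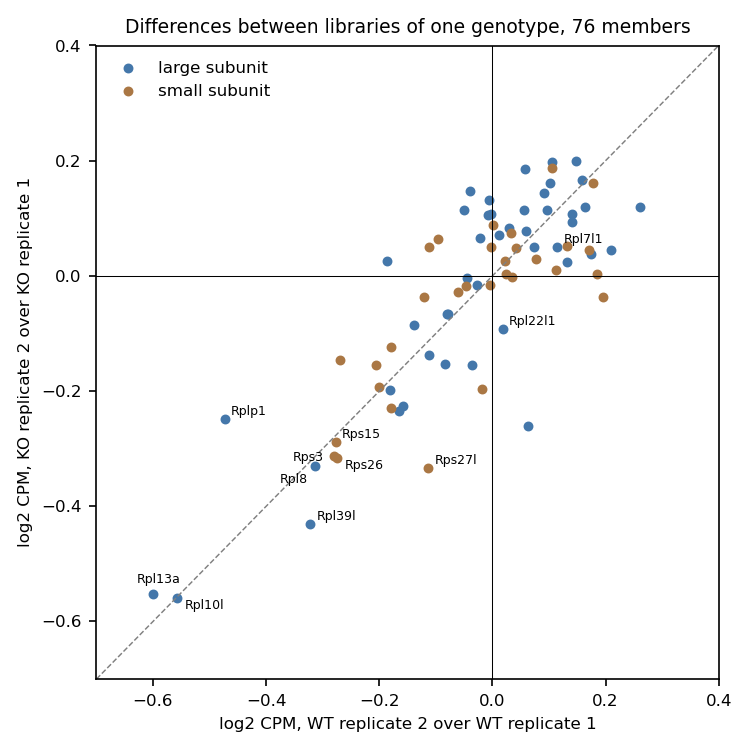
Log2 ratio of replicate 2 over replicate 1 in WT (horizontal) and in KO (vertical) for the 76 tested members, blue for the large and brown for the small subunit, with the dashed line marking equal values. The points follow the line from Rpl13a and Rpl10l at the lower left, so the replicate numbers separate these genes in the same way in both genotypes.

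With a term for these pairs of libraries in the TMM fit, 4 members passed as higher, Rpl39l, Rpl10l, Rps27l and Rpl7l1 (background 13.2%), and 8 as lower, Rps2, Rpl12, Rpl10a, Rpl6, Rpl38, Rpl3, Rps10 and Rpsa (background 12.5%). The pairs were defined from the libraries' counts and not by the labels, and 1 residual degree of freedom remained, so these calls are weak evidence. The lower calls ranged from -0.27 (Rps2) to -0.17 (Rpsa) on the log2 scale, and Rpl39l stood at 0.71 ± 0.08 (edgeR adjusted p = 4.56e-16). Leaving out KO replicate 2 gave 3 higher calls, Rpl39l, Rpl10l and Rps27l (background 8.62%), and 3 lower, Rpl12, Rpl6 and Rpl38 (background 7.81%).

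Scaled by the spike-in, 0 members were called in either direction, where 0.00596% of all tested genes were called higher and 0.0953% lower. At an unadjusted p under 0.05 edgeR again had 0 members, against 634 of all 16789 tested genes. DESeq2 and limma voom also called 0 members, where over all tested genes DESeq2 called 1 higher and 12 lower and limma voom 8 higher and 122 lower. The median log2 fold change was -0.29 for members and -0.23 for all tested genes, and 74 of 76 members were negative, against 78.8% of all tested genes. The member median turned to 0.12 without WT replicate 2 and to 0.03 without KO replicate 1. The median of all tested genes turned as well, to 0.18 and 0.09. With the term for the library pairs 62 members were called lower (81.6%, background 35.8%) and 1 higher (background 4.86%). That fit left 1 residual degree of freedom, so these calls are weak evidence. Members are also counted more deeply, with a median of 120 CPM against 14.8, and the part of depth in this contrast was not tested. The authors' deposited table had 0 of 77 members under a DESeq2 adjusted p of 0.05, with a lowest DESeq2 adjusted p of 0.999. Of all its genes, 8 of 29514 (0.0271%) were under 0.05. Its log2 fold change of Rpl39l was 0.36. That value used size factors in the order of the S. pombe totals and is not directly comparable with the TMM value.

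Members that carry snoRNA genes in their span were compared with the rest by their medians, without a test. The 27 tested hosts had a median log2 fold change of -0.09 and the 49 other members one of -0.04, with median levels of 33.6 and 34.5 CPM per kb. The snoRNAs themselves held no counts and could not be compared.

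Genes around the ribosome were mostly without calls, as were most of the 16789 tested genes (4.05% called higher and 4.02% lower). At an unadjusted p under 0.05 edgeR had 3842 of all tested genes. Among ribosomal proteins outside the naming rule, Rack1 was at 425 and 385 CPM in WT against 472 and 401 CPM in KO (0.11), Fau had a log2 fold change of 0.08 and Rpl36al one of 0.21, and none passed the edgeR test (adjusted p of 0.654, 0.760 and 0.642). Of 74 tested mitochondrial ribosomal protein genes 0 were called (5 at an unadjusted p under 0.05), with a median of 0.03, and with the library-pair term 5 were higher and 1 lower. The most abundant of them, Mrps28 and Mrpl1, had values of -0.12 and 0.04. Of 40 ribosome biogenesis genes 0 were called (0 at an unadjusted p under 0.05), with a median of 0.00, and Ncl and Npm1, nucleolar proteins, had values of -0.06 and -0.09.

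Translation factors and other TOP mRNA genes had a list median of 0.02. In them 1 of 25 tested genes was called, higher in KO (background 4.05% higher and 4.02% lower). This was Tpt1, a TOP mRNA that codes for the translationally controlled tumour protein, at 110 and 115 CPM in WT against 180 and 181 CPM in KO, with no overlap (0.68 ± 0.09, edgeR adjusted p = 0.00350). Of 14 RNA polymerase I genes 1 was called, Polr1d, a subunit shared with polymerase III, at 175 and 173 CPM in WT against 225 and 241 CPM in KO (0.42 ± 0.09, edgeR adjusted p = 0.0271), and the list median was -0.06. Of 14 regulators, among them mTOR pathway genes, Larp1, Myc family genes and Gabpa, 0 were called (2 at an unadjusted p under 0.05), with a median of -0.02, and Rptor and Larp1 had values of -0.01 each. The library-pair term, read against its background of 13.2% higher and 12.5% lower, called 2 regulators higher and 3 lower, 4 TOP and translation genes higher and 1 lower, 2 polymerase I genes higher and 0 lower, and 1 biogenesis gene higher and 0 lower.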

How the data were processed

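Nascent RNA was sequenced from 2 libraries of Supt3 WT and 2 of Supt3 KO ES cells, grouped by the genotype in the labels and numbered in accession order. The submitters' processing notes name STAR 2.5.3, HTSeq 0.6.1p1 and the build mm10, and also DESeq2 1.16.1, cutadapt 1.10 and bcl2fastq 2.20.0.422. Their settings, the annotation release and any removal of PCR copies are not stated in the labels or files. The authors deposited raw count tables, with 54146 mouse genes and 7259 S. pombe genes. Their comparison table repeats these counts and, per the file headers, adds a normalized signal, log2 fold changes and p-values. The signal is the count divided by a size factor per library. These factors were 1.03 and 0.861 in WT and 1.21 and 0.940 in KO, in the order of the S. pombe totals and not of the mouse totals. The table's name carries the word betaprior, so its log2 values may be on another scale than those fitted here. The deposited signal, log2 values and p-values entered no test here. The pattern of zeros in overlapping genes fits counting over whole gene spans on 1 strand with shared reads dropped, which no header states.

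Genes were kept by filterByExpr (minimum count 10) and tested with edgeR 4.0.16 quasi-likelihood tests in R 4.3.3, Benjamini-Hochberg adjusted over all 16789 tested genes. Library size was scaled by TMM factors of mouse genes, or set to the total of S. pombe counts after their own TMM scaling. Standard errors were derived from the log2 fold change and its F statistic. Both fits were also run on simulated counts with known changes. In the spike-in simulation mouse totals kept a fixed ratio to S. pombe totals, unlike in the data. It therefore does not show what the spike-in fit could call here. Sums were compared by exact permutation over libraries. Alternatives were DESeq2 1.42.0, limma 3.58.1 voom, other filters and scalings, a term for library pairs with fewer or more counts, and each library left out, where a genotype's lone library is assumed to vary like the other pair.

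The members and lists were chosen with earlier results of these data known. Named were the 6 members with the highest CPM and the 6 with the highest CPM per kb, all called members, the 5 largest and 5 smallest log2 fold changes, the paralogs, the stalk proteins and Rpsa, and from other lists up to 4 called genes or the 2 most abundant. Other members are named for a zero count, an overlap or a count of 8 or fewer, and were chosen after their values were seen. A gene that the rule gives is left out of the text. Motifs were searched in RefSeq windows of build GRCm38.p6, the assembly that mm10 denotes. Exon lengths and overlaps used GENCODE M21, where 74 of the 79 members have the same span. Exons of all transcripts of a gene were joined for its exon length.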

Additional observations from a re-analysis of the deposited data

How the results depend on the processing

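The call of Rpl39l held under every alternative run in the TMM scaling, with log2 fold changes of 0.50 to 0.93. The counts of called members changed under 2 alternatives. Without KO replicate 2 there were 3 higher and 3 lower, and over all libraries left out in turn 1 to 3 higher and 0 to 3 lower. The term for library pairs gave 4 higher and 8 lower, and in the spike-in scaling 1 higher and 62 lower, where leaving out any library gave 0 in both directions. The cause was not tested. Over all tested genes that term called 13.2% higher and 12.5% lower in the TMM scaling. In the spike-in scaling it called 4.86% higher and 35.8% lower.

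With a library left out, the log2 difference of the members' share of mouse counts ran from -0.101 to 0.0263, turning positive without KO replicate 2. That of counts per S. pombe count ran from -0.63 to 0.0875, positive at that value without WT replicate 2 and at 0.0850 without KO replicate 1. That of the large to small subunit ratio ran from -0.0223 to 0.0225, negative without WT replicate 1 (-0.0153) or KO replicate 2 (-0.0223), and was -0.0088 without the 3 members with the most counts and -0.0069 within the libraries with fewer counts. By exon length the level ranks of Rpl8, Rplp1, Rps12, Rpl4, Rps26 and Rps9 became 2, 1, 16, 3, 10 and 22.

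Of 24 named tested members 7 changed sign under some alternative, none of them over 0.16 in size. With RLE factors Rpl22l1 had -0.0026 and Rps3 -0.0020, with DESeq2 -0.0024 and -0.0020, and with the CPM filter Rpl22l1 had -6.8e-05. With a library left out the ranges were -0.0433 to 0.0508 for Rpl22l1, -0.16 to 0.15 for Rps3, -0.0246 to 0.31 for Rpl8, -0.10 to 0.0503 for Rplp0, -0.14 to 0.32 for Rplp1, -0.0083 to 0.31 for Rps26 and -0.0829 to 0.11 for Rps9. Near-zero values have no stable direction at 2 libraries per genotype. The labels give no replicate numbers, so the library pairs of that term come from the counts alone and not from the design.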
